A study of Homo sapiens with 6 samples.

Results

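The genes described here encode the proteins of the mitochondrial ribosome, taken as the protein-coding genes whose symbol is MRPL or MRPS plus a number, without pseudogenes. Of 78 such symbols, 76 matched a row of the deposited count table by Ensembl identifier, among 57820 genes in all. These were 48 MRPL and 28 MRPS genes, and MRPL45 and MRPS21 were not analysed here. The counts come from bulk RNA of motor neurons that were grown from H9, a human embryonic stem cell line with a wild-type genotype. In both groups, motor neuron progenitors were differentiated in neural medium with 0.01 µM RA and 0.1 µM SAG (retinoic acid, a patterning signal of the spinal cord, and a compound that switches on the Hedgehog pathway). In simulated microgravity (SMG) the cultures were held on a 2D clinostat, which rotates them so that gravity keeps changing direction relative to the cells. The control was normal gravity (NG). Each group had 3 libraries, the duration of rotation was not stated in the sources used, and all cells descend from 1 cell line.

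The mitochondrial ribosome, or mitoribosome, translates the mRNAs of the mitochondrial genome, which encode core subunits of the respiratory chain and of ATP synthase. Its large subunit joins amino acids around the 16S rRNA (MT-RNR2), and its small subunit reads the mRNA around the 12S rRNA (MT-RNR1). Both rRNAs come from the mitochondrial genome, whereas every protein of the particle is encoded in the nucleus, made in the cytosol and imported. Some of these proteins have counterparts in bacterial ribosomes, and others are found only in mitochondria. Neurons depend heavily on oxidative phosphorylation, and inherited defects of several of these proteins affect brain, muscle or heart. The names do not follow the structure throughout. MRPS30 (mL65 in the structural nomenclature) and MRPS18A (mL66) sit in the large subunit, and MRPS36, which RefSeq lists as KGD4, is a component of the alpha-ketoglutarate dehydrogenase complex.

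Total counts ranged from 16329907 to 22685870 per library, and pairs of libraries within a group had a chi-square of 1.53 to 3.11 per degree of freedom, above sampling noise. Whether each library had its own culture is not stated in the labels. The p-values therefore cover only the variation among the libraries sequenced, which may be technical. Levels are in CPM, counts scaled to library size with TMM factors, given in the order of the replicate numbers or as mean ± SD. Differences are given as SMG minus NG on the log2 scale with their SE, and n = 3 in each group. A gene was called where its adjusted p in edgeR's quasi-likelihood test, adjusted by the Benjamini-Hochberg method over all 17803 genes tested, was under 0.05. All 8 motor neuron markers were above 1 CPM, and their summed level was 583 to 616 CPM in NG and 692 to 720 CPM in SMG. The 6 ventral progenitor markers (2460 to 2720 and 2500 to 2670 CPM) and the 2 proliferation markers (837 to 889 and 719 to 734 CPM) were also expressed, so the cultures held progenitors and dividing cells beside neurons. Both markers of pluripotent cells and all 3 of endothelium and microglia stayed under 1 CPM. Of the 4 glial markers, GFAP and AQP4 stayed under 1 CPM. The parts that motor neuron and dividing-cell RNA have in the results below were not tested. In bulk RNA, fewer cells of a type and less RNA per cell cannot be told apart. The library NG3 differed from the other NG libraries in a way that followed GC content (the share of G and C bases in the transcript). The main counts of called members and their medians are therefore also given without it and with each library's trend with transcript length and GC content removed.

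Nearly all members were expressed. After the filter on low counts, 73 of the 76 were tested, 47 MRPL and 26 MRPS. Per kilobase of the longest transcript, the highest levels were those of MRPL3 (45.9 CPM per kb), whose bacterial counterpart is a core protein of the large subunit, and MRPL15 (38.2). Among MRPS genes they were MRPS34 (26.0 CPM per kb), without which the small subunit becomes unstable, and MRPS35 (25.9). Tested MRPL genes ran from 1.09 CPM per kb (MRPL46) to 45.9 with a median of 14.2, a range of 42.2-fold. Tested MRPS genes ran from 2.93 (MRPS17) to 26.0 with a median of 14.7, a range of 8.88-fold. The medians of the subunits thus lay close together per length although single members did not. The order depends on the transcript chosen. With the principal transcript in place of the longest, an alternative chosen after seeing the data, the highest levels were those of MRPL32 (50.2 CPM per kb) and MRPS30 (42.6). The lowest were then those of MRPL38 (1.58) and MRPS17 (2.93), with MRPL46 at 5.94. The ranges became 31.7-fold for MRPL and 14.6-fold for MRPS genes, with medians of 17.3 and 19.1.

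Libraries of a group agreed closely for most members. The median coefficient of variation among MRPL genes was 7.17% in NG and 4.22% in SMG. Among MRPS genes it was 4.72% in NG and 3.87% in SMG. The most variable were MRPL27 in SMG (19.1%) and MRPL34 in NG (18.4%). MRPL34, the counterpart of a very small bacterial protein, was at 19.5, 14.3 and 14.5 CPM in NG and at 15.9, 15.0 and 16.3 CPM in SMG. One NG library was thus far above the other 5.

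At 3 members the table held almost no reads, and these did not pass the filter. MRPL30 had counts of 2, 1 and 0 in NG and 3, 1 and 0 in SMG. MRPS24 had 1, 1 and 1 in NG and 1, 5 and 3 in SMG. MRPS18B had 2, 1 and 0 in NG and 3, 3 and 2 in SMG. All are proteins of the particle, and the median level of tested members was 23.2 CPM. In the annotation used here, GENCODE 29, MRPL30 shares 19.5% of its exonic bases with another gene on the same strand, and MRPS24 shares 23.2%, mostly with the readthrough gene URGCP-MRPS24. MRPS18B shares none. It lies in the major histocompatibility region, where 18 of 19 neighbouring genes were also under 1 CPM (median 0.174 CPM, highest 2.25). For the other 74 members with neighbours counted, the neighbours' median level had a median of 16.3 CPM. How reads in shared or repeated sequence were counted is not given in these sources, and its part in these low values was not tested. Pseudogenes of the family took few reads. Of 73 with a row, 39 had no count, and all of them together held 582 counts, 0.228% of the members' counts.

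Nuclear genes for mitochondrial proteins are known to share regulators, among them NRF1, the ETS factor GABPA and YY1. In the RefSeq promoter table (GRCh38.p14, 250 bases before to 50 bases after each gene's start), 69 of the 78 symbols had an entry, with 85 promoters. The letters of 5 motifs were searched on both strands, and a gene counted once if any of its promoters held them. The YY1 motif AAGATGGCG was found at 13 members (18.8%), at 2.14% of all 27305 genes in the table and at 4.38% of the 11019 tested coding genes. The ETS motif CCGGAAGT was found at 12 members (17.4%, with 4.95% of all genes and 9.33% of tested coding genes). The NRF1 palindrome was found at MRPL17 alone (1.45%, with 1.52% and 2.57%). Its looser form, in which any base may stand at 1 inner position and which includes the palindrome, was found at 9 (13% of members, with 6.98% and 12.6%), and the core of the hypoxia response element, ACGTG, at 24 (34.8%, with 24.9% and 31.9%). Members thus held the YY1 and ETS letters more often than tested coding genes, and the NRF1 and hypoxia letters about as often. Such a match is a description of the sequence and not a site shown to be bound. The 5 promoters below show how different the members' starts are. They run 5′ to 3′ on the strand of the gene, with matches in capitals.

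MRPL17 (chr11:6683291-6683590, minus strand; the NRF1 palindrome, then the hypoxia core on the other strand): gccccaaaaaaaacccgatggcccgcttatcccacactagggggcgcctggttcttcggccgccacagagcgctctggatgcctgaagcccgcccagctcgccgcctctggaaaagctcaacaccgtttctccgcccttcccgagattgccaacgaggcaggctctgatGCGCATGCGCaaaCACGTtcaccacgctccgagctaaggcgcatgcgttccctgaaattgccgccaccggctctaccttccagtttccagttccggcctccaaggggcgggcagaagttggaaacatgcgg
MRPL32 (chr7:42932126-42932425, plus strand; the YY1 motif on the other strand): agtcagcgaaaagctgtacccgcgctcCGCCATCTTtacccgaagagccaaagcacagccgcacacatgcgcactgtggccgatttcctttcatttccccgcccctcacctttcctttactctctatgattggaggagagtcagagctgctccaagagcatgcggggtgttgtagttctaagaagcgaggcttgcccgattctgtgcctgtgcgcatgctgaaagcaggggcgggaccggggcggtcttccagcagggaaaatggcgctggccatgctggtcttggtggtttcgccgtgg
MRPL3 (chr3:131502922-131503221, minus strand; the ETS motif): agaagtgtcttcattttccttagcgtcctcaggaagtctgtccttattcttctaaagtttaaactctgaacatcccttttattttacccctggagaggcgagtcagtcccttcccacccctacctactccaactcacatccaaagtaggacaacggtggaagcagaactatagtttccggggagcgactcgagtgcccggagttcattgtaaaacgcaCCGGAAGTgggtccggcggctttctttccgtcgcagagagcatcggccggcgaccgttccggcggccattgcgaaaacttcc
MRPS9 (chr2:105037819-105038118, plus strand; the hypoxia core, then the looser NRF1 form on the other strand): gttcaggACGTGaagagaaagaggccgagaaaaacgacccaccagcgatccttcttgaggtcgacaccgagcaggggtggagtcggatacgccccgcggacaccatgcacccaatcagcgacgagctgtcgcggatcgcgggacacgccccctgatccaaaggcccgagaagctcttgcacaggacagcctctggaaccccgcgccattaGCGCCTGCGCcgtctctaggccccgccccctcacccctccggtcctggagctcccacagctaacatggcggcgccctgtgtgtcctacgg
MRPL52 (chr14:22829637-22829936, plus strand; the YY1 motif at 2 places and the ETS motif on the other strand): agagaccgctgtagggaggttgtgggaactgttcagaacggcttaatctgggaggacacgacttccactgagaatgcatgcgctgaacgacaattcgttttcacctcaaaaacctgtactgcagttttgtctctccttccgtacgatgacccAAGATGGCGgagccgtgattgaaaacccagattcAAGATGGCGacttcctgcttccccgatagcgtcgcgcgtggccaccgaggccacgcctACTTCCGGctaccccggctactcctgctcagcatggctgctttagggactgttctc

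The first 4 belong to members that were lower in SMG, and MRPL52, chosen after its values were seen, to a member whose level did not pass the test (0.02 ± 0.07, adjusted p = 0.852). By motif, the 26 lower members with a promoter and the 38 other tested ones held the YY1 letters in 4 and 7 genes, the ETS letters in 2 and 10, the looser NRF1 form in 4 and 3, and the hypoxia core in 12 and 9. These counts are a description and were not tested.

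The main comparison was SMG with NG. Of the 73 tested members, 32 were called lower in SMG, by small amounts, 1 was called higher and 40 did not pass. Of the 47 tested MRPL genes, 22 fell (46.8%, against 18.5% of all genes tested), 1 rose (MRPL4, 2.13% against 17.3%) and 24 did not pass the test. Of the 26 tested MRPS genes, 10 fell (38.5%), 0 rose and 16 did not pass. The median log2 fold change was -0.19 over MRPL genes (36 negative, 11 positive), -0.09 over MRPS genes (20 negative, 6 positive) and -0.0002 over all genes tested. Groups did not overlap, with SMG lower, for 24 MRPL and 13 MRPS genes (23.6% of all genes tested), and with SMG higher for 4 and 3 (22.6% of all genes tested). The count of MRPS genes rests on single libraries, being 5 without NG1, 6 without SMG1 and 6 without SMG3. The count of MRPL genes ranged from 19 to 22 when each library was left out in turn. Without NG3, 22 MRPL and 8 MRPS genes fell, 0 MRPL genes and 1 MRPS gene rose, and the medians were -0.18 and -0.09.

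**Figure D1:**
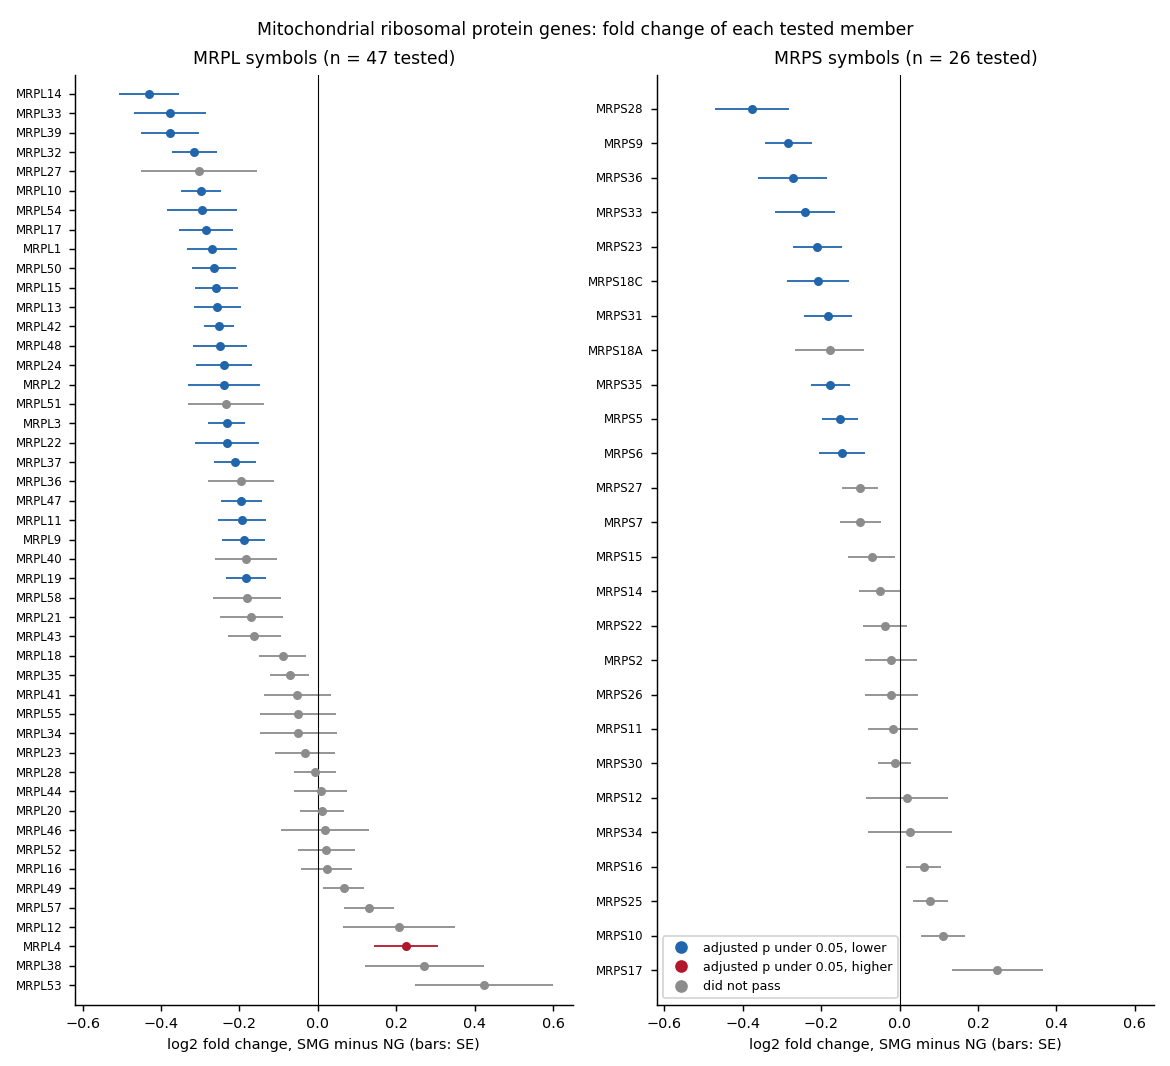
Log2 fold change, SMG minus NG, of each tested member (x axis, bars are SE, n = 3 libraries per group), with MRPL genes on the left, MRPS genes on the right and colour marking the call. MRPL genes run from -0.43 (MRPL14) to 0.42 (MRPL53) and MRPS genes from -0.38 (MRPS28) to 0.25 (MRPS17), with the called genes nearly all at the low end.

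Among large-subunit proteins with a bacterial counterpart, MRPL14 had the lowest fold change. It faces the small subunit and is where the assembly factor MALSU1 binds. Its level was 18.4, 17.3 and 20.8 CPM in NG and 13.8, 14.1 and 14.0 CPM in SMG. Every SMG library was below every NG library, and the SMG libraries had an SD of only 0.159 CPM. The difference was -0.43 ± 0.08 (adjusted p = 7e-05), 1.35-fold lower.

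MRPL33, the counterpart of a small bacterial protein, was at 15.8, 18.9 and 21.7 CPM in NG and at 13.4, 15.1 and 14.5 CPM in SMG. The groups did not overlap, although the lowest NG library was close to the highest SMG library. The fall was -0.38 ± 0.09 (adjusted p = 0.00285), and 21.1% of its exonic bases are shared with BABAM2 on the same strand. MRPL32, which has to be cleaved by the m-AAA protease before it joins the ribosome, was at 55.7, 53.6 and 63.5 CPM in NG and at 49.1, 45.4 and 44.3 CPM in SMG. NG3 was highest, and the groups did not overlap (-0.31 ± 0.06, adjusted p = 0.00013). Its promoter, shown above, holds the YY1 letters.

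MRPL10 and MRPL12 form the stalk to which translation factors bind, MRPL10 as the anchor and MRPL12 as the arm. MRPL10 was at 50.6, 49.8 and 48.2 CPM in NG and at 41.9, 40.9 and 38.1 CPM in SMG, with no overlap (-0.30 ± 0.05, adjusted p = 3.7e-05, 1.23-fold lower). MRPL12 was much less abundant, at 4.20, 3.51 and 2.93 CPM in NG and at 3.82, 4.09 and 4.51 CPM in SMG. Its groups overlapped, and its value of 0.21 ± 0.14 did not pass (adjusted p = 0.276). Because 68.2% of its exonic bases are shared with another annotated gene on the same strand, the level of MRPL12 is uncertain. The change of the arm therefore cannot be set beside that of its anchor.

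MRPL3 and MRPL15, the members with the highest levels per length, both fell. MRPL3 was at 82.6, 82.7 and 88.99 CPM in NG and at 69.6, 69.1 and 77.3 CPM in SMG (-0.23 ± 0.05, adjusted p = 0.000247). MRPL15 was at 45.0, 46.4 and 52.1 CPM in NG and at 39.4, 40.6 and 39.6 CPM in SMG (-0.26 ± 0.05, adjusted p = 0.000432). In neither gene did the groups overlap, and NG3 was the highest library in both.

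MRPL4, whose bacterial counterpart lines the tunnel through which the new protein leaves, was the 1 member that rose. It was at 14.7, 14.4 and 12.2 CPM in NG and at 16.6, 16.3 and 15.6 CPM in SMG, with no overlap and with NG3 lowest (0.22 ± 0.08, adjusted p = 0.0309). The call was lost without NG3 (0.15, adjusted p = 0.148), without SMG1 (adjusted p = 0.096) and without SMG2 (adjusted p = 0.0798), with DESeq2 (adjusted p = 0.0849), and after the trend with GC content was removed (0.09, adjusted p = 0.413). On the opposite strand, 21.4% of its exonic bases overlap another gene, and whether counting used strand is not stated.

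MRPL34, MRPL35 and MRPL36, counterparts of small bacterial large-subunit proteins, did not pass the test. MRPL35 was at 51.5, 53.6 and 56.9 CPM in NG and at 50.4, 50.6 and 52.8 CPM in SMG (-0.07 ± 0.05, adjusted p = 0.27). MRPL36 was at 12.5, 13.1 and 12.4 CPM in NG and at 10.8, 11.2 and 11.1 CPM in SMG, without overlap (-0.20 ± 0.08, adjusted p = 0.0659). For MRPL34, at the levels given above, the value was -0.05 ± 0.10 (adjusted p = 0.734). In all, 16 of the 29 tested bacterial-type proteins of the large subunit fell and 1 rose, with a median of -0.20.

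Of the 20 tested mitochondria-specific proteins of the large subunit, 6 fell and 0 rose, with a median of -0.17. The lower share was 55.2% of the bacterial-type and 30% of the mitochondria-specific proteins (18.5% over all genes tested), but with the length and GC trend removed it was 48.3% (14 of 29) and 50% (10 of 20), with 0 and 1 higher. MRPL39, which resembles a threonyl-tRNA synthetase, had the lowest fold change of these. It was at 23.5, 22.6 and 27.6 CPM in NG and at 19.3, 19.9 and 17.4 CPM in SMG, with no overlap (-0.38 ± 0.07, adjusted p = 0.00023, 1.30-fold lower). MRPL58, a peptidyl-tRNA hydrolase that is built into the subunit and belongs to a family that frees stalled ribosomes, was at 13.4, 13.5 and 11.6 CPM in NG and at 11.3, 11 and 11.7 CPM in SMG. NG3 lay among the SMG libraries, and the value of -0.18 ± 0.09 did not pass (adjusted p = 0.103). Without NG3 it was -0.24 (adjusted p = 0.0255).

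The members with MRPS names in the large subunit did not pass either. MRPS30 was at 73.2, 70.5 and 71.8 CPM in NG and at 72.9, 69.5 and 71.5 CPM in SMG. The libraries of both groups covered the same range (-0.01 ± 0.04, adjusted p = 0.85). MRPS18A was at 13.2, 13.5 and 12.1 CPM in NG and at 10.3, 12.2 and 11.7 CPM in SMG (-0.18 ± 0.09, adjusted p = 0.115). It overlaps RSPH9 on the opposite strand over 47.0% of its exonic bases. The lowest level among tested large-subunit members was that of MRPL53, at 1.79, 2.34 and 2.26 CPM in NG and 3.26, 2.83 and 2.41 CPM in SMG. The groups did not overlap, but the value of 0.42 ± 0.18 did not pass (adjusted p = 0.0601), and 45.2% of its exonic bases are shared with CCDC142. It passed under 3 alternatives, with library size scaling (adjusted p = 0.0499), among protein-coding genes alone (adjusted p = 0.0455) and without SMG3 (adjusted p = 0.0391).

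**Figure D2:**
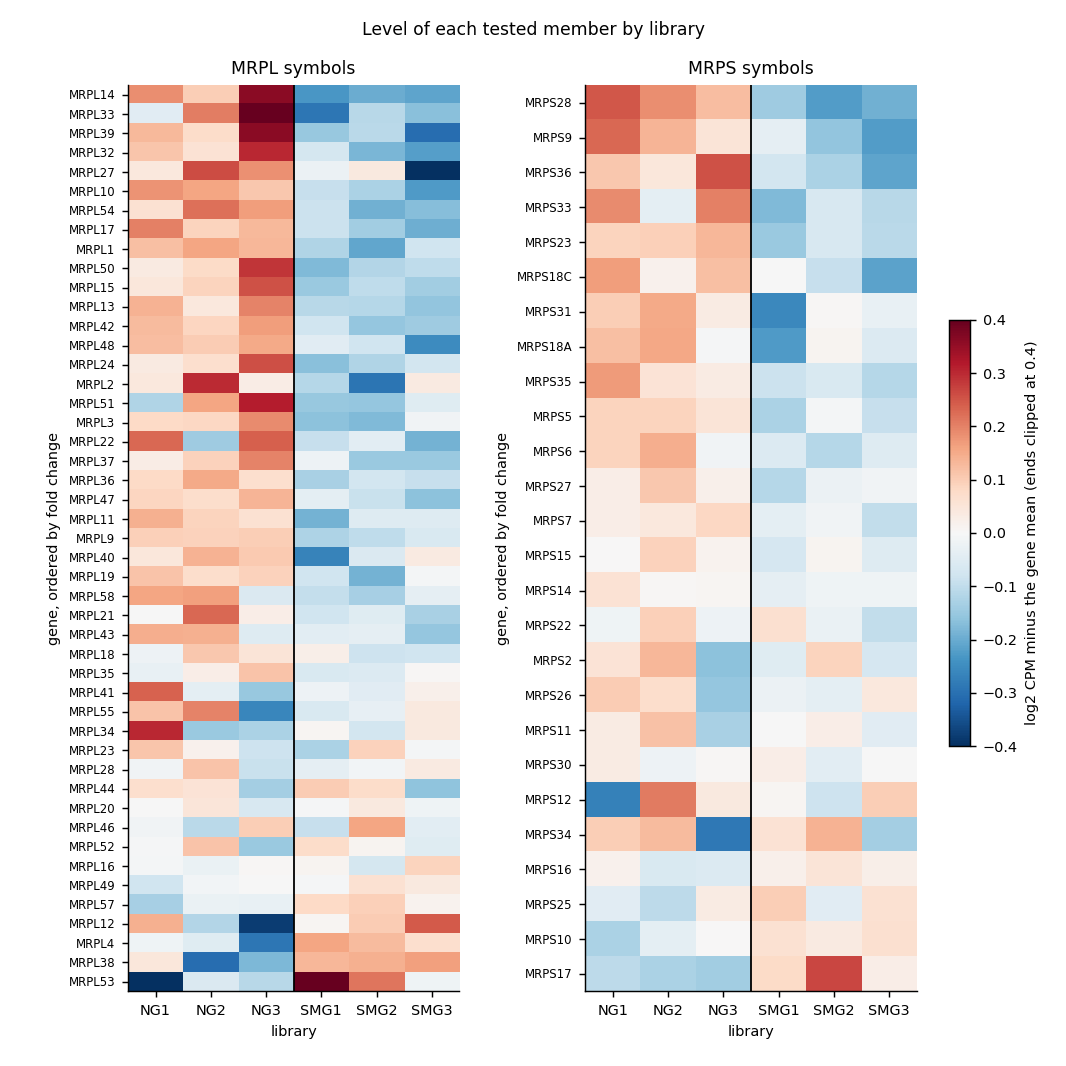
Level of each tested member in each library (log2 CPM minus the mean of the gene over the 6 libraries, ends clipped at 0.4), with genes ordered by fold change from MRPL14 to MRPL53 and from MRPS28 to MRPS17, and a black line between NG and SMG. The upper rows are red in NG and blue in SMG, and NG3 is the darkest column for several of the lowest MRPL genes.

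In the small subunit, 5 of 14 tested bacterial-type proteins fell and 0 rose (median -0.06), as did 4 of 9 mitochondria-specific proteins, with 0 higher (median -0.10). These are 35.7% and 44.4%, against 18.5% over all genes tested. With the trend removed the bacterial-type proteins had 3 lower and 3 higher, and the mitochondria-specific ones 1 lower (11.1%, against 16.3% over all genes). Single libraries also moved these counts, to 2 of 14 without SMG3 and 3 without NG1, SMG1 or SMG2, and to 1 of 9 without NG1 and 2 without SMG1. MRPS28 (bS1m) had the lowest fold change, at 10.04, 9.61 and 9.20 CPM in NG and 7.65, 7.23 and 7.40 CPM in SMG. The groups stood well apart (-0.38 ± 0.09, adjusted p = 0.00247). It shares 35.8% of its exonic bases with another gene on the same strand, so part of this value may belong to that gene. MRPS9, a protein of the head of the subunit, was at 37.5, 35.1 and 33.2 CPM in NG and at 31.2, 28.7 and 27.4 CPM in SMG (-0.28 ± 0.06, adjusted p = 0.000495, 1.22-fold lower), with no overlap.

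Among mitochondria-specific proteins, MRPS23 was at 23.4, 23.5 and 24.1 CPM in NG and at 19.9, 21.1 and 20.5 CPM in SMG (-0.21 ± 0.06, adjusted p = 0.00906). MRPS33 was at 19.1, 16.3 and 19.3 CPM in NG and at 14.8, 16.0 and 15.5 CPM in SMG (-0.24 ± 0.08, adjusted p = 0.0144). Both had groups that did not overlap, but in MRPS33 NG2 came close to the SMG libraries. The call for MRPS33 was lost without NG1 (adjusted p = 0.0958), without SMG1 (adjusted p = 0.0719), with DESeq2 (adjusted p = 0.0553) and with the trend removed (-0.17, adjusted p = 0.0723).

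The levels of MRPS35 were 54.8, 50.6 and 49.9 CPM in NG and 45.9, 46.7 and 45.1 CPM in SMG (-0.18 ± 0.05, adjusted p = 0.00612), and the call was lost without NG1 (adjusted p = 0.0873) and with the trend removed (-0.06, adjusted p = 0.339). MRPS34, the highest per length, was at 28.8, 29.4 and 22.1 CPM in NG and at 27.99, 29.6 and 24.5 CPM in SMG. One library of each group was low, and the groups overlapped (0.03 ± 0.11, adjusted p = 0.879). Its sign turned without NG3 (-0.09) and without SMG2 (-0.03).

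MRPS18A, MRPS18B and MRPS18C are 3 relatives of bacterial S18 that occupy different places in the particle. In the groups above only MRPS18C was counted as bacterial-type, and MRPS18A and MRPS18B were counted as mitochondria-specific despite this kinship. MRPS18C, in the small subunit, was at 16.9, 15.2 and 16.3 CPM in NG and at 15.0, 14.1 and 12.96 CPM in SMG (-0.21 ± 0.08, adjusted p = 0.0417). The groups were separated by less than the spread within either, and the call was lost without NG1, NG3, SMG2 or SMG3 (adjusted p = 0.178, 0.0615, 0.0834 and 0.206), with DESeq2 (adjusted p = 0.125) and with the trend removed (-0.09, adjusted p = 0.422). MRPS18A had a like value that did not pass, and MRPS18B had too few counts for a test. MRPS36, the dehydrogenase component, was at 12.7, 12.2 and 14.1 CPM in NG and at 11.2, 10.8 and 10.2 CPM in SMG (-0.27 ± 0.09, adjusted p = 0.0144), and its call was lost without NG3 (adjusted p = 0.0614) or SMG3 (adjusted p = 0.0724), with DESeq2 (adjusted p = 0.058) and with the trend removed (-0.14, adjusted p = 0.208).

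Summed over members, the large-subunit genes were lower in SMG by a larger share than the small-subunit genes. The 48 MRPL genes summed to 1360, 1372 and 1406 CPM in NG and to 1232, 1223 and 1219 CPM in SMG. Their mean fell from 1379 ± 23.9 to 1225 ± 6.66 CPM, to 88.8% of NG. The 28 MRPS genes summed to 866.4, 863.3 and 838.5 CPM in NG and to 815.5, 823.4 and 809.1 CPM in SMG, with a mean of 856.1 ± 15.3 and 816.0 ± 7.16 CPM (95.3% of NG). In both sums every SMG library was below every NG library.

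The MRPL sum divided by the MRPS sum gave ratios of 1.569, 1.590 and 1.677 for the NG libraries and of 1.511, 1.485 and 1.506 for the SMG libraries. NG3 had the highest ratio, and the groups did not overlap. The mean ratio was 1.612 ± 0.057 in NG and 1.501 ± 0.0136 in SMG, so that SMG stood at 0.931 of NG. This quotient was 0.937 with members sorted by the subunit they sit in, 0.938 with levels per kb and 0.954 without the 2 most abundant members of each subunit. In this last form the groups were barely separated, with ratios of 1.625, 1.641 and 1.752 in NG and of 1.619, 1.567 and 1.6 in SMG. NG3 was again the highest. No sum or ratio is given without NG3 or with the length and GC trend removed. No test was made of these sums, since they are scores over chosen genes. Sorted by place, 22 of 49 large-subunit members fell (44.9%) and 1 rose (median -0.18). Of 23 small-subunit members, 9 fell (39.1%) and 0 rose (median -0.07). Over all genes tested, 18.5% fell and 17.3% rose. With the length and GC trend removed, 24 of 49 and 4 of 23 were lower (49% and 17.4%, against 16.3% of all genes). In that form 1 and 3 were higher (2.04% and 13%, against 15.1% of all genes).

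**Figure D3:**
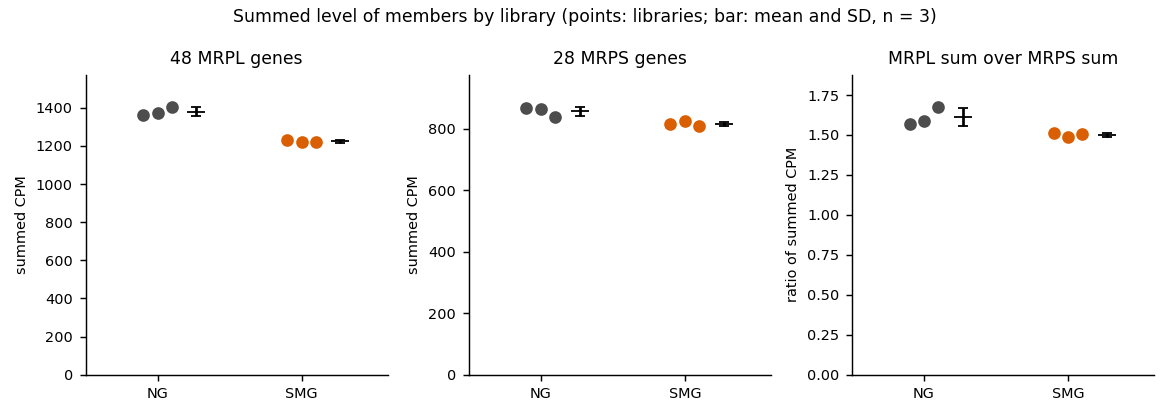
Summed CPM of the 48 MRPL and of the 28 MRPS genes, and the ratio of the sums, in each library (points; the bar is the mean and SD, n = 3; y axes start at 0). MRPL sums are 1219 to 1232 CPM in SMG and 1360 to 1406 in NG, and the ratio is highest in NG3.

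The members' fold changes followed GC content in part. Over the 73 tested members, the log2 fold change correlated with the GC content of the longest transcript (r = 0.339, rho = 0.335), as it did over all 17193 tested genes with a length (r = 0.265, rho = 0.335). Genes share the libraries and are not independent replicates, so no p is given. The difference of NG3 from the other NG libraries ran against GC content (r = -0.54 over members, -0.234 over all genes), and that of NG2 ran with it (0.386 and 0.197). MRPS members had a lower median GC content (45.1%) than MRPL members (51.5%). Of the 37 members at or below 47.7% GC, 23 fell and 0 rose (median -0.21), and of the 36 above it, 9 fell and 1 rose (median -0.07). Over all genes tested, of any GC content, 18.5% fell and 17.3% rose.

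When each library's trend with transcript length and GC content was removed, 23 of 47 MRPL genes fell and 1 rose (16.3% and 15.1% of all genes tested were lower and higher), with a median of -0.15. The MRPS genes then fell in 5 of 26 cases and rose in 3 (19.2% and 11.5%), with a median of -0.06. The share of MRPL genes called lower was thus 48.9% after the correction and 46.8% before it, while that of MRPS genes went from 38.5% to near the share over all genes. The same correction reversed the order by GC content, with 12 of the 37 GC-poor members and 16 of the 36 GC-rich members lower (medians -0.09 and -0.15), and the correlation became -0.184.

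The genes called also changed. Of the 32 lower members, 21 remained lower after the correction (17 MRPL and 4 MRPS, the latter MRPS5, MRPS9, MRPS23 and MRPS28), and 11 were lost. Another 7 became lower (MRPL21, MRPL28, MRPL36, MRPL40, MRPL41, MRPL43 and MRPS18A), and 4 became higher (MRPL57, MRPS10, MRPS16 and MRPS17). MRPL14 stood at -0.48 after the correction (adjusted p = 1.01e-05), MRPL10 at -0.30 (adjusted p = 1.16e-05) and MRPL36 at -0.36 (adjusted p = 0.000829). MRPS10 stood at 0.22 (adjusted p = 0.00142). Whether the trend with GC content comes from the libraries or from the cells was not tested.

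**Figure D4:**
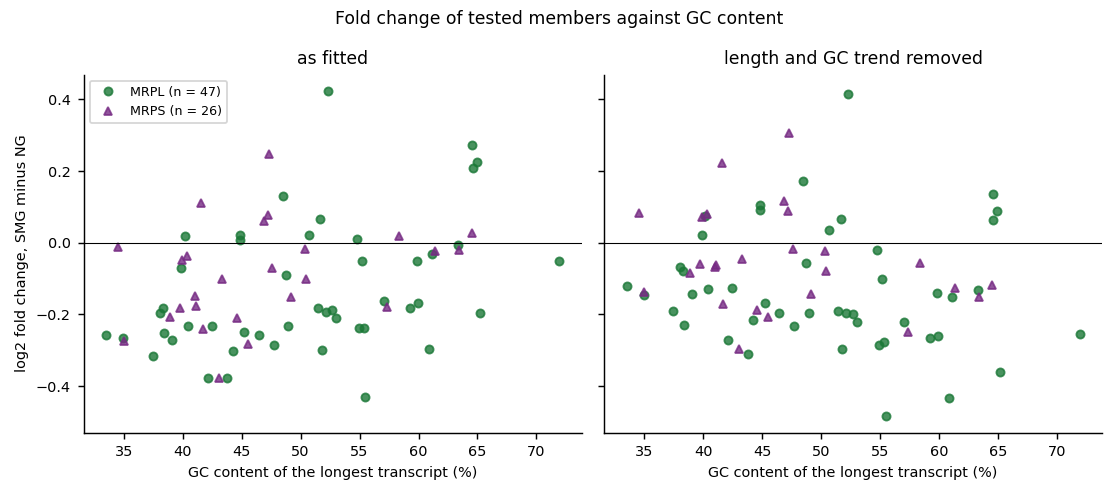
Log2 fold change of the 73 tested members (y axis) against the GC content of the longest transcript in percent (x axis), as fitted on the left and with the trend of length and GC content removed on the right; circles are MRPL and triangles MRPS genes. The points rise with GC content on the left (r = 0.339) and fall slightly on the right (r = -0.184), and in both panels most circles lie below 0.

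Annotation overlap touches the members with the highest fold changes. MRPL53, MRPL38, MRPS17 and MRPL12, with 4 of the 5 highest fold changes as fitted, share from 27% to 68.2% of their exonic bases with another gene on the same strand, and each was under 7 CPM in every library. Without members that share exonic bases on the same strand, an alternative chosen after seeing the data, 19 of 38 MRPL genes fell and 1 rose, and 7 of 21 MRPS genes fell and 0 rose. The share of lower members was then 50% and 33.3%, against 18.5% of all genes tested. With the length and GC trend also removed, 19 of these MRPL genes (50%) and 3 of the MRPS genes (14.3%) were lower. That compares with 16.3% of all genes. In that form 1 MRPL and 1 MRPS gene were higher (2.63% and 4.76%, against 15.1% of all genes).

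Other genes of mitochondrial translation were counted in the same way, and no difference between lists was tested. Of the 5 mitoribosomal proteins under other names, DAP3, PTCD3, CHCHD1, AURKAIP1 and GADD45GIP1, 1 fell and 0 rose. The lower share, 20%, was near the 18.5% over all genes tested. With the length and GC trend removed, 0 were lower and 0 higher. PTCD3, which sits where mRNA enters the small subunit, went from 119.8 ± 2.81 to 112.3 ± 0.88 CPM (-0.09 ± 0.04, adjusted p = 0.0455), a call lost without each of the 6 libraries in turn (adjusted p from 0.058 to 0.129) and with DESeq2 (adjusted p = 0.118). DAP3, a GTP-binding protein of the small subunit, had overlapping groups (-0.08 ± 0.05, adjusted p = 0.164).

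Of 28 tested assembly and rRNA modification factors, 4 fell (GRSF1, MTRES1, NOA1 and TFB1M) and 4 rose (DHX30, MTG1, MTG2 and TRUB2), with a median of -0.02. Each direction held 14.3% of the list, below the shares over all genes tested (18.5% and 17.3%). With the length and GC trend removed, 3 were lower and 2 higher, and DHX30 (-0.0029, adjusted p = 0.96), TRUB2 (adjusted p = 0.0715) and TFB1M (adjusted p = 0.24) no longer passed. MTG1 and MTG2 are GTPases that help to build the large subunit. MTG2 was at 17.7, 17.7 and 14.9 CPM in NG and at 21.8, 20.8 and 21.5 CPM in SMG (0.34 ± 0.07, adjusted p = 0.000427). MTG1 was at 9.24, 8.99 and 7.07 CPM in NG and at 10.5, 11.5 and 11.7 CPM in SMG (0.41 ± 0.10, adjusted p = 0.00201), with 29.9% of its exonic bases shared with another gene on the same strand. Both rose in every SMG library relative to every NG library, opposite in sign to most of the large-subunit proteins. NG3 was the lowest library in both. With the trend removed both still passed, MTG2 at 0.25 (adjusted p = 0.00451) and MTG1 at 0.31 (adjusted p = 0.0101).

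Of 18 translation factors and activators, 4 fell (LRPPRC, MRRF, MTIF2 and OXA1L) and 0 rose. The lower share, 22.2%, was near the 18.5% over all genes tested, and with the trend removed it was 16.7%, with MTIF2 no longer called (-0.06, adjusted p = 0.497). OXA1L, which inserts newly made proteins into the inner membrane, was at 145.8, 139.7 and 128.9 CPM in NG and at 121.0, 124.2 and 119.0 CPM in SMG (-0.19 ± 0.04, adjusted p = 0.000496). MRRF, which recycles ribosomes after termination, overlapped between groups and passed narrowly (-0.19 ± 0.07, adjusted p = 0.043), a call lost without NG2, NG3, SMG1 or SMG2 (adjusted p = 0.055, 0.231, 0.0915 and 0.245).

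Among 10 transcriptional regulators of nuclear mitochondrial genes, 3 rose and 1 fell (30% and 10%, against 17.3% and 18.5% of all genes tested). With the length and GC trend removed, 2 were higher and 0 lower (20% and 0%, against 15.1% and 16.3%). PPRC1, a coactivator of the PGC-1 family, was at 33.7, 35.5 and 33.0 CPM in NG and at 44.0, 46.9 and 46.8 CPM in SMG (0.43 ± 0.05, adjusted p = 2.61e-07). The nuclear receptor ESRRA, a partner of that family, was at 14.6, 15.7 and 14.0 CPM in NG and at 19.7, 20.0 and 21.1 CPM in SMG (0.46 ± 0.07, adjusted p = 1.2e-05). In both, every SMG library was above every NG library. The factors whose motifs were searched above moved less. YY1 rose (0.10 ± 0.03, adjusted p = 0.0272), GABPA fell (-0.15 ± 0.04, adjusted p = 0.00423), and NRF1 did not pass (-0.02 ± 0.06, adjusted p = 0.797). After the correction for length and GC content YY1 (adjusted p = 0.096) and GABPA (adjusted p = 0.113) no longer passed.

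The rRNAs that the members bind were both lower in SMG. MT-RNR1, the rRNA of the small subunit, was at 514.3, 532.3 and 560.6 CPM in NG and at 384.8, 397.1 and 366.7 CPM in SMG. The groups lay far apart relative to their spread (-0.48 ± 0.04, adjusted p = 2.69e-11). MT-RNR2, the rRNA of the large subunit, was at 4927, 4871 and 5553 CPM in NG and at 4392, 4677 and 4373 CPM in SMG (-0.19 ± 0.05, adjusted p = 0.00488). After the correction MT-RNR1 stood at -0.42 (adjusted p = 9.13e-13) and MT-RNR2 at -0.09 (adjusted p = 0.125). The fold changes of the rRNAs thus had the order opposite to that of their proteins, with the small-subunit rRNA the lower of the pair. An mRNA library kit was used, so these values reflect the rRNA such a library retains.

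Of the 13 mRNAs that the mitoribosome translates, 0 fell and 3 rose (MT-CO1, MT-CO3 and MT-CYB), and all 13 values were positive (median 0.28). The higher share, 23.1%, was near the 17.3% over all genes tested. The library SMG2 stood apart here, as at MT-ND6, which was at 36.3, 37.9 and 44.3 CPM in NG and at 32.2, 118 and 40.6 CPM in SMG (adjusted p = 0.478). The median was 0.09 without SMG2 and 0.43 without SMG1. MT-CO3 was at 2865, 2949 and 3321 CPM in NG and at 3401, 3580 and 3594 CPM in SMG (0.21 ± 0.05, adjusted p = 0.00379). MT-CYB was at 838.1, 958.7 and 1017 CPM in NG and at 1184, 1571 and 1442 CPM in SMG (0.58 ± 0.14, adjusted p = 0.0411), a call lost when any library but SMG1 was left out (adjusted p from 0.0781 to 0.128). The count of risen mRNAs ranged from 1 (without NG1, NG2 or SMG2) to 6 (without SMG1) when each library was left out, and was 7 with limma-voom and 9 without robust estimation.

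Related nuclear gene families were counted in the same fit. Of 84 tested cytosolic ribosomal protein genes, 69 fell and 1 rose (median -0.33). Of 37 nuclear genes for subunits of respiratory complex I, 15 fell and 2 rose (median -0.16). The share of lower genes was 82.1% and 40.5%, and 43.8% over all 73 tested members, against 18.5% of all genes tested. After the correction for length and GC content it was 79.8%, 37.8% and 38.4%, against 16.3% of all genes. The share of higher genes as fitted was 1.19%, 5.41% and 1.37%, against 17.3% of all genes tested. All these values come from the same 6 libraries, and the differences between families were not tested.

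**Figure D5:**
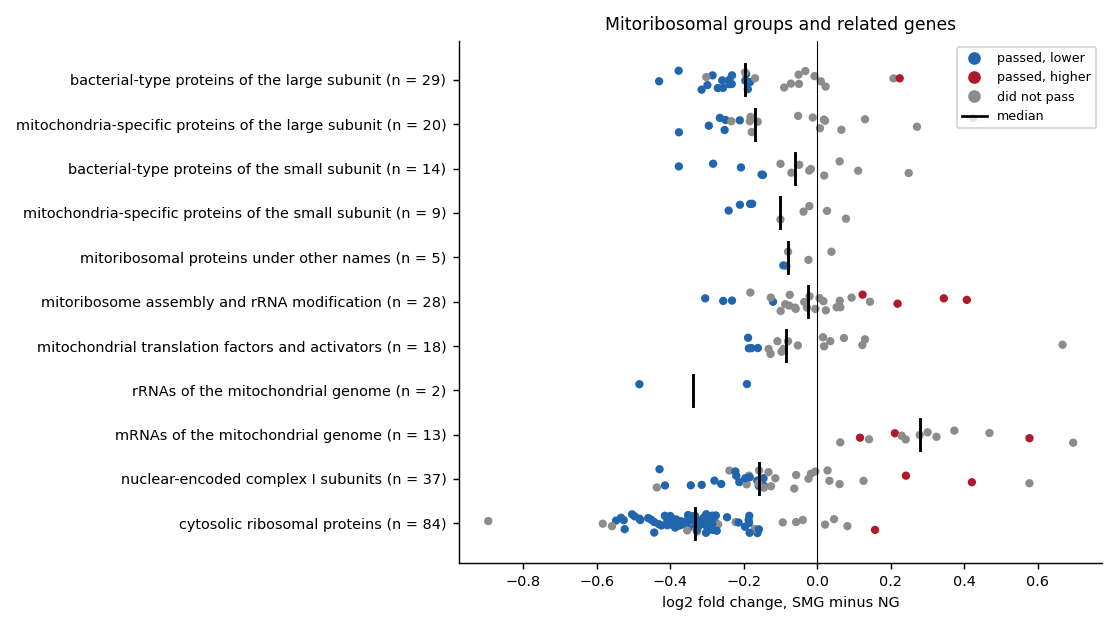
Log2 fold change, SMG minus NG, of each tested gene (points, coloured by call) in the structural groups of the mitoribosome and in related lists, with the median as a black bar. The 4 mitoribosomal groups have medians from -0.20 to -0.06, the mitochondrial mRNAs lie wholly above 0 and the cytosolic ribosomal proteins mostly below it (median -0.33).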

How the data were processed

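The authors deposited unnormalized read counts for each Ensembl gene in each library. The submitters' processing notes name the tools HISAT2, SAMtools, featureCounts and DESeq2, with hg19 as the build. They give no versions or annotation, and say nothing of strand or of reads with several matches. Per the labels' protocols, an mRNA library kit was applied to total RNA. Symbols were found for 52338 identifiers, and GENCODE 29 (on GRCh38) gave names, types, exon overlap, length and GC content. Exon overlap thus rests on GRCh38 positions, whereas the counts were made on hg19.

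Genes were filtered with filterByExpr, scaled by TMM and tested with edgeR's quasi-likelihood test with robust estimation (edgeR 4.0.16, R 4.3.3). All adjusted p-values are by Benjamini-Hochberg over 17803 genes, at 0.05. The biological coefficient of variation was 0.0346. The library trend with length and GC content was fitted as natural splines with 4 degrees of freedom and entered as offsets, and 96.6% of tested genes had a length. Alternatives used DESeq2 1.42.0, limma-voom 3.58.1, other scalings and filters, a replicate block, coding genes alone, and each library left out. Scripts were tested on simulated data. When each gene was drawn with its own dispersion, the share of false calls there exceeded the threshold, so calls close to it are less certain than their adjusted p states.

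The members, lists and rules were chosen with earlier results of these data known. Named genes were, within MRPL and within MRPS, up to 5 lowest and 5 highest fold changes among called members without overlap, the 2 highest per length, the 2 lowest, 11 fixed members, and up to 2 called genes per related list. Other genes given with values were chosen after these were seen. Of the lists, MRM1 and RCC1L matched no row. Muscle and mesenchyme markers (4) summed to 1.70 to 3.23 CPM.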

Additional observations from a re-analysis of the deposited data

How the results depend on the processing

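Over 18 alternatives, MRPL genes lower in SMG numbered from 18 (DESeq2) to 24 and their median stayed negative: -0.17 with library size scaling, -0.18 without a filter, -0.15 with the length and GC trend removed, -0.15 with that and the replicate block, and from -0.19 to -0.17 without each library. MRPL genes that rose (1) became 0 with DESeq2, 2 with library size scaling, 2 among coding genes and 0 to 2 without each library. MRPS genes that fell (10) became 5 with DESeq2, 5 with the trend removed, 5 with that and the block, and 5 to 8 without each library, and those that rose (0) became 3 with the trend removed, 3 with that and the block, and 0 to 1 without each library. The MRPS median was -0.049 without a filter. In all these alternatives 12 of the 22 lower MRPL genes and 3 of the 10 lower MRPS genes (MRPS9, MRPS23 and MRPS28) were lower. Signs turned for MRPS34 (0.03; trend removed -0.12, with the block -0.11, without each library -0.0851, without NG3, to 0.10), MRPS30 (-0.01; library size 0.0077, trend removed 0.0819, with the block 0.0831, without each library -0.0276 to 0.0052), MRPL35 (-0.07; trend removed 0.022, with the block 0.0194) and MRPL34 (-0.05; without each library -0.13 to 0.13, the latter without NG1), none of which was called. The cause was not tested. Replicate numbers did not pair the libraries (same-number correlations -0.00406, 0.0178 and -0.0281). The replicate block alone gave 24 lower and 1 higher MRPL genes, and 9 lower and 0 higher MRPS genes. Depth limits the members under 7 CPM, whose SE exceeded 0.11.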
